A study of Mus musculus with 6 samples.

Results

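The genes described are the cilia and flagella associated proteins (*Cfap*) and the tektins (*Tekt*), taken as every row of the count table whose symbol is *Cfap* or *Tekt* followed by digits alone. The rule found 36 of 20483 genes, 31 *Cfap* genes and 5 tektins. The rows *Cfap97d1* and *Cfap97d2* carry another ending and were the 2 symbols of these families left out. Transcripts were measured by scRNA-Seq in primary tracheal epithelial cells differentiated at air-liquid interface. The cultures came from C57BL/6 mice that were 12 weeks old, 3 *WT/WT* mice and 3 littermates homozygous for a missense allele of *Dnaaf5* made by genome editing (*MIS/MIS*). A missense allele need not alter the level of its own transcript, so *Dnaaf5* counts cannot check the genotype labels. The labels name no treatment, and by the study's account the missense allele goes back to a single founder pup.

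Motile cilia are built on an axoneme, a ring of doublet microtubules around a central pair, and *Cfap* is a name shared by proteins of many parts of that structure rather than a family by descent. Some are microtubule inner proteins that line the doublets. Others belong to the central apparatus, the bases of the radial spokes or the tethers and regulators of the inner dynein arms. A few act in the cytoplasm where dynein motors are assembled before transport. Tektins are filament proteins inside the doublet microtubules. DNAAF5 is one of the cytoplasmic factors needed to assemble the dynein motors of the outer and inner arms.

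The cells carried 16 deposited cell type names, of which 4 were multiciliated. The 6 mice gave 2673 to 6710 cells with 100961835 to 153326568 unique molecular identifiers (UMIs, 1 per captured transcript), and 332 to 2155 multiciliated cells holding 13525483 to 53211600 UMIs. Of 23871 cells, 134 (0.561%) had a barcode that occurred in more than 1 library. The deposited names were checked against markers. *Foxj1* stood at 72.5 CPM (UMIs per 1000000 UMIs of the summed cells) in Multiciliated1, 716 CPM in Multiciliated2, 344 CPM in Multiciliated3 and 195 CPM in Multiciliated4. *Mcidas* and *Deup1*, genes of early ciliogenesis, were at 140 and 364 CPM in Multiciliated2 and at 0.62 and 14.1 CPM in Multiciliated3, so Multiciliated2 is called early and Multiciliated3 mature here. The 4 secretory markers (*Scgb1a1*, *Scgb3a2*, *Bpifa1* and *Muc5b*) summed over the 6 mice to 472 to 4007 CPM in Multiciliated1 and 2452 to 4908 CPM in Multiciliated2, against 96.6 to 330 CPM in Multiciliated3, and doublets were not called. Counts are 3′ tags, 1 per molecule, and levels of different genes were therefore compared as CPM without division by length.

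Of the 36 genes, 30 were specific to multiciliated cells by a fixed ratio, the mean CPM of the 6 mice in multiciliated cells over the higher of the means in secretory and basal cells, of at least 10. Another 5 genes were enriched (ratio from 2 to 10), 1 was broad (ratio under 2), and none was below 1 CPM in all 3 cell groups. Among the 14206 genes tested in multiciliated cells, 6.15% were specific and 75.1% broad by the same ratio. *Cfap298* lay just below the line of 10, at 9.997. The lowest ratio among the specific genes was 21.5 for *Cfap300*, and the largest was 318 for *Cfap73*. The clusters were made from these cells, so the differences between cell types are descriptions without a test.

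**Figure D1:**
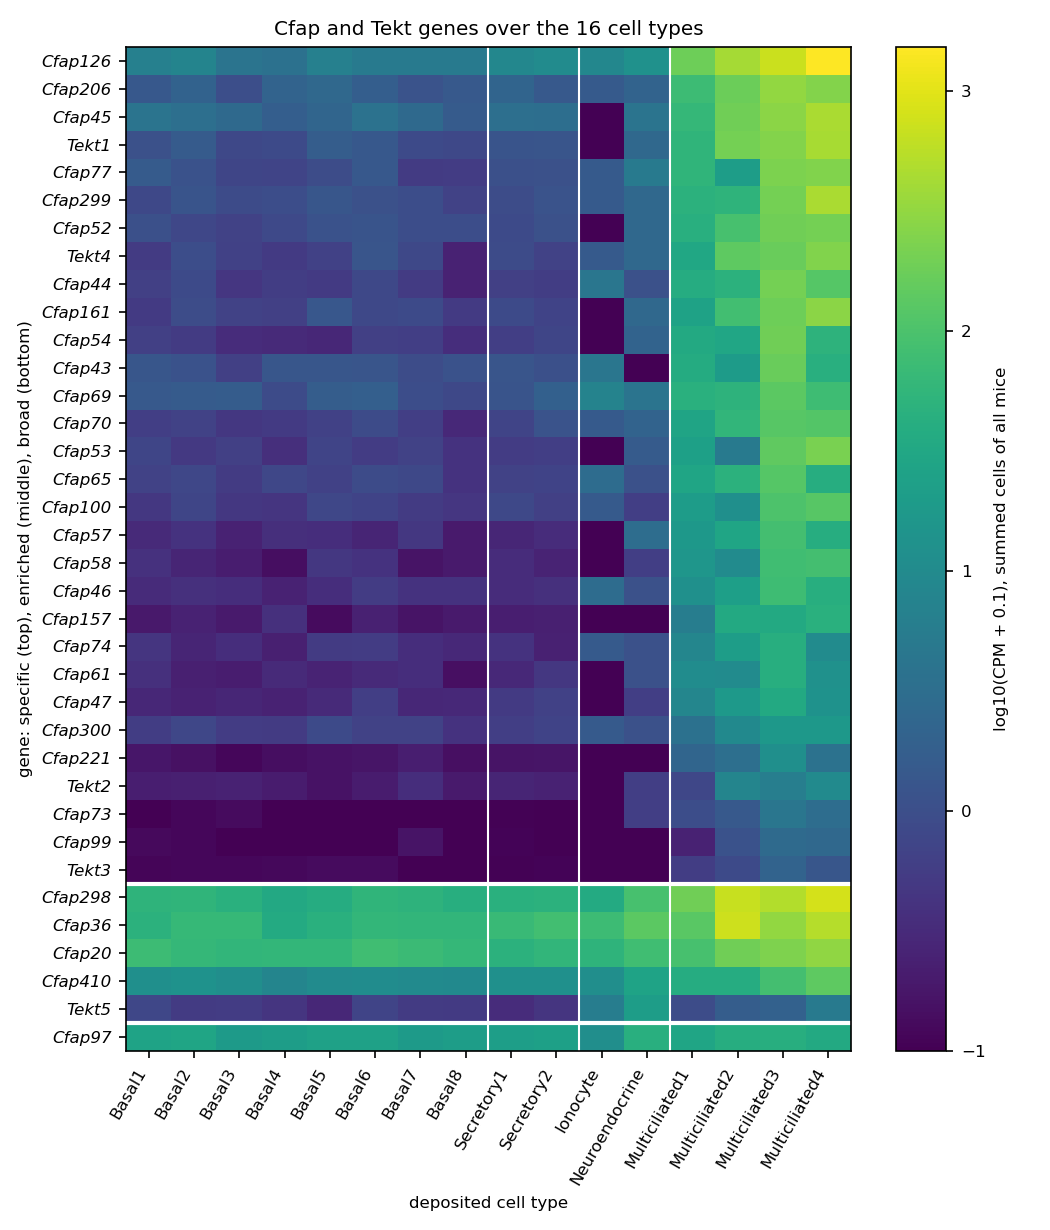
Level of the 36 genes (rows) in the 16 deposited cell types (columns) as log10(CPM + 0.1) of the UMIs summed over the cells of all mice. White lines part the 30 specific, 5 enriched and 1 broad gene and the basal, secretory, rare and multiciliated types; the specific genes are bright only in the 4 multiciliated columns, while *Cfap298*, *Cfap36*, *Cfap20*, *Cfap410* and *Cfap97* are visible in every column.

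The microtubule inner proteins held the most abundant specific member. *Cfap126*, which encodes Flattop, had a mean of 517 ± 56.1 CPM (SD, n = 6 mice) in multiciliated cells, against 9.42 CPM in secretory and 5.601 CPM in basal cells. *Cfap45* followed with 203 ± 27.4 CPM and *Tekt1* with 190 ± 21.3 CPM. *Tekt4* stood at 124 ± 13.1 CPM, whereas the other tektins were rare, at 4.66 ± 1.62 CPM for *Tekt2*, 1.62 ± 0.793 CPM for *Tekt5* and 1.26 ± 0.408 CPM for *Tekt3*. *Tekt1* and *Tekt4* thus carried nearly all of the tektin transcripts. *Cfap20*, an inner junction protein of the doublet, was not specific by the ratio, at 186 CPM in multiciliated cells and 64.8 CPM in basal cells. The rare *Tekt5* was not specific either, at a ratio of 3.34.

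Among the genes of dynein assembly, *Cfap298* was the second most abundant of the 36, with 469 ± 27.2 CPM in multiciliated cells and 46.9 CPM in basal cells. *Cfap300*, which acts in the same process, was at 11.6 ± 2.35 CPM. At the radial spoke base, *Cfap206* had 216 ± 28.7 CPM and *Cfap61* 25.7 ± 5.01 CPM. The 8 genes of the central apparatus lay between 7.14 CPM for *Cfap221* and 108 CPM for *Cfap54*. The 5 genes of the inner arm tethers and regulators lay between 2.65 CPM for *Cfap73* and 121 CPM for *Cfap44*. *Cfap36* was at 370 ± 38.5 CPM and was also present at 72.8 CPM in secretory and 53.8 CPM in basal cells.

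*Cfap97* was the single broad member, with means of 37.1 CPM in multiciliated, 23.7 CPM in secretory and 23.8 CPM in basal cells. In basal cells it measured 22.6, 22.1 and 23.8 CPM in mice WT1, WT2 and WT3 and 20.1, 25.6 and 28.8 CPM in mice MT1301, MT1306 and MT1383, so the genotypes overlapped. Its highest level among the 16 cell types was in neuroendocrine cells, at 43.1 CPM. *Tekt5* was also highest there, at 21.6 CPM, followed by ionocytes at 5.77 CPM from 4 UMIs, Multiciliated4 at 4.91 CPM and Multiciliated3 at 1.90 CPM. The neuroendocrine cluster had 163 cells, 108 of them from MT1383, and its *Tekt5* UMIs numbered 2, 10 and 8 in the *WT/WT* mice and 1, 0 and 22 in the *MIS/MIS* mice. *Tekt5* was therefore seen in neuroendocrine cells of 5 of 6 mice, at counts too low to compare mice.

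Outside multiciliated cells the 30 specific genes were faint together. Their summed level was 15.9 to 27.2 CPM in the 8 basal clusters, 27.3 and 29.8 CPM in the 2 secretory clusters, 41.8 CPM in ionocytes and 57.7 CPM in neuroendocrine cells, against 4173 CPM in Multiciliated3. The ionocyte value rests on 28 cells, in which 16 of the 30 genes had no UMI.

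Promoter letters were read from RefSeq windows on GRCm38.p6 that run from 250 bases before to 50 after an annotated start, which were given for 29 of the 36 genes (35 windows). *Cfap53*, *Cfap54*, *Cfap65*, *Cfap73*, *Cfap97*, *Cfap157* and *Cfap299* were not matched. Both strands were searched for GTTGCC, a core of the X-box that RFX factors bind, for the longer forms GTTGCCATG and GTTGCTATG, of which the first contains GTTGCC, and for the forkhead motif GTAAACA. The core was found in 14 of 35 windows (40.0%) and in 12.5% of all 32851 windows. A longer form was found in 6 of the 35 windows (17.1%), those of *Cfap161*, *Cfap74*, *Cfap44*, *Cfap45* and *Tekt3*, and in 1.27% of all windows. The forkhead motif occurred in 3 windows (8.57%), against 3.65% of all. These shares describe letters in a window and say nothing of binding. The stretches upstream of the start of 4 genes with a longer form are shown because these letters set them apart from most promoters. *Cfap74* has windows at more than 1 annotated start, in which the letters fall on different sides of the start, and is not shown, while *Tekt1* and *Cfap43* are added for a core and a forkhead match. Each runs 5′ to 3′ on the strand of the gene, with 1 match, the longest there, or its reverse complement in capitals. Further matches to the core lie in lower case within the stretches of *Cfap161* (2) and *Tekt1* (1). In *Cfap44*, 1 further match begins at the last capital letter and runs on in lower case.
Cfap161, minus strand, chr7:83794847-83794907: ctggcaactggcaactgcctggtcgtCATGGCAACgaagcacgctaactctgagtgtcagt
Cfap44, plus strand, chr16:44394746-44394798: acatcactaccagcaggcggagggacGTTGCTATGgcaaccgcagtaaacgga
Cfap45, plus strand, chr1:172521085-172521129: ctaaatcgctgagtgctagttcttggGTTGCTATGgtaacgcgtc
Tekt3, plus strand, chr11:63061600-63061658: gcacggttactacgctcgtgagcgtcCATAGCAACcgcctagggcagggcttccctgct
Tekt1, minus strand, chr11:72361883-72361923: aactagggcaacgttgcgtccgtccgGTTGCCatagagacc
Cfap43, minus strand, chr19:47837384-47837442: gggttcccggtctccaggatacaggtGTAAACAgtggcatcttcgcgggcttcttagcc
The matched letters end 10 to 33 bases before the annotated start in *Cfap161*, *Cfap44*, *Cfap45* and *Tekt3*. *Tekt1* also has a window at another annotated start (chr11:72361247-72361546), in which none of the motifs was found. *Cfap45* and *Tekt3*, which both carry GTTGCTATG, stood at 203 and 1.26 CPM in multiciliated cells, and the levels of genes with and without a longer form were not compared.

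The early and mature clusters were compared within each mouse by the ratio of CPM in Multiciliated3 to CPM in Multiciliated2. Of the 36 genes, 29 were higher in Multiciliated3 in all 6 mice, 2 were higher in Multiciliated2 in all 6 mice and 5 were mixed. Over all 14206 genes tested, 44.2% were higher in Multiciliated3 and 24.8% lower in all 6 mice.

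*Cfap36* was the earliest gene. It measured 675, 674 and 754 CPM in Multiciliated2 of WT1, WT2 and WT3 and 688, 750 and 793 CPM in MT1301, MT1306 and MT1383, and 298 to 359 CPM in Multiciliated3. The 2 clusters did not overlap, and the ratio of the means was 0.441. *Cfap298* was the other early gene, at 622 to 727 CPM in Multiciliated2 and 488 to 537 CPM in Multiciliated3, a ratio of 0.734. *Tekt2* had 3.87 to 12.4 CPM in Multiciliated2 and 3.28 to 7.46 CPM in Multiciliated3, and it was lower in Multiciliated3 in 4 of 6 mice, with as few as 12 UMIs in a mouse. The others without 1 direction were *Cfap97*, *Cfap157*, *Tekt4* and *Tekt5*, at ratios of the means of 1.03, 1.04, 1.25 and 1.55.

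The most mature genes were *Cfap53* and *Cfap77*, both microtubule inner proteins. *Cfap53*, which is also known for its part in left-right asymmetry, measured 0.644 to 7.46 CPM in Multiciliated2 and 124 to 173 CPM in Multiciliated3. Its ratio was 18.6 to 193 over mice, and the highest ratio, in WT1, rests on 2 UMIs in Multiciliated2. *Cfap77* measured 10.96 to 28.2 CPM and 196 to 258 CPM, a ratio of 12.3 between the means. Ratios of 8.85 for *Cfap43*, 8.50 for *Cfap100*, 8.002 for *Cfap58* and 6.53 for *Cfap54* followed. *Cfap126*, *Cfap45* and *Tekt1* belong with *Cfap53* to the inner proteins but had ratios of only 1.77, 1.48 and 1.27. Members of 1 structural group were thus spread over nearly the whole range of ratios.

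**Figure D2:**
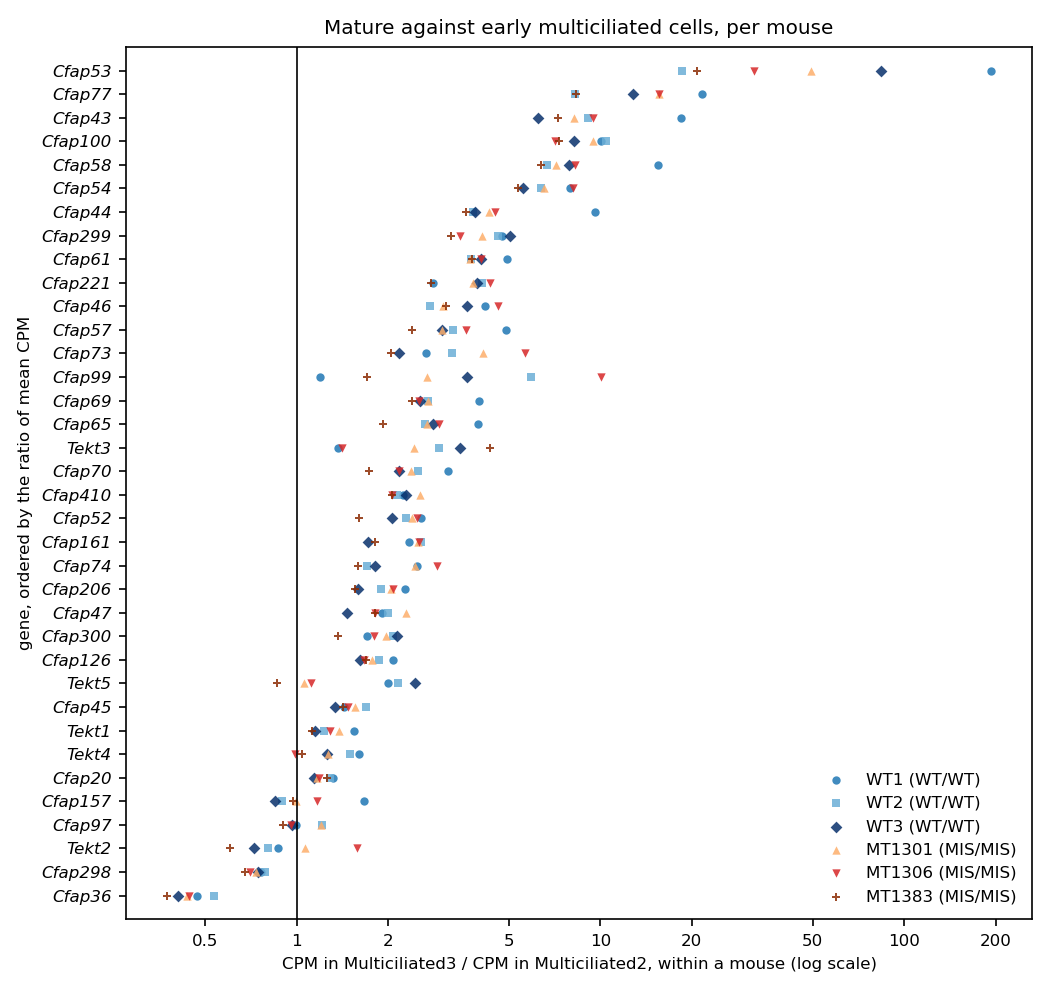
Ratio of CPM in Multiciliated3 to CPM in Multiciliated2 (log axis) for each of the 36 genes, with 1 point per mouse and the vertical line at a ratio of 1. All 6 points of *Cfap36* and *Cfap298* lie left of the line, those of 29 genes lie right of it, and the spread between mice is wide for *Cfap53*, *Cfap99* and *Tekt3*, which had 1 or 2 UMIs in Multiciliated2 of at least 1 mouse.

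In Multiciliated1 the members were present at lower levels than in Multiciliated3. The 30 specific genes summed to 917 CPM there, 21.98% of the 4173 CPM in Multiciliated3, and the single genes ranged from 5.93% to 31.6% of their Multiciliated3 means. The enriched genes kept 37.5% to 45.4% and the broad *Cfap97* 66.2%.

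Multiciliated4 was the smallest multiciliated cluster and held 146 cells. Its summed level of the specific genes, 5180 CPM, exceeded that of Multiciliated3, and 17 members had their highest level of the 16 cell types there and 16 in Multiciliated3. The genes that were higher and those that were lower in Multiciliated4 differed in length. Among the 29 members with at least 20 UMIs in both clusters, the ratio of Multiciliated4 to Multiciliated3 had a Spearman correlation of -0.83 with the longest coding sequence in GENCODE M21 (Pearson r of the log2 values -0.86). The 11 members of under 1500 coding bases were all higher in Multiciliated4, with a median ratio of 1.63, and of the 18 longer members 6 were higher, with a median of 0.687. The division at 1500 bases was chosen after the values were seen.

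*Cfap299* and *Cfap126*, both of 699 coding bases, had ratios of 2.19 and 2.12. *Cfap54*, of 9513 coding bases and the longest of the 36, had a ratio of 0.265, and *Cfap43*, of 5046 bases, a ratio of 0.262. *Cfap43* overlaps *Itprip* on the same strand and *Cfap299* overlaps *Gm11111* and others, so their reads could be shared. Further members, such as *Cfap46* and *Cfap77*, also overlap a gene on the same strand. The same direction was seen beyond the family, at -0.70 for 58 other axonemal genes and at -0.59 for the 6180 genes with enough UMIs. Within the 5 mice with at least 20 Multiciliated4 cells, the correlation over 16 to 26 members lay between -0.88 and -0.55. The points share libraries and cells and are not independent. Multiciliated4 cells had median totals of 8355 to 11628 UMIs per mouse against 20098 to 36404 in Multiciliated3, and median mitochondrial shares of 0.472% to 2.16% against 7.29% to 9.62%. The part of depth and RNA quality in this pattern was not tested. The ratio of Multiciliated3 to Multiciliated2 also went with coding length, at a Spearman correlation of 0.37 over the 36 members. It was 0.45 for 63 other axonemal genes and 0.12 for the 12136 genes with enough UMIs. The part of length in the early and mature order was not tested.

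**Figure D3:**
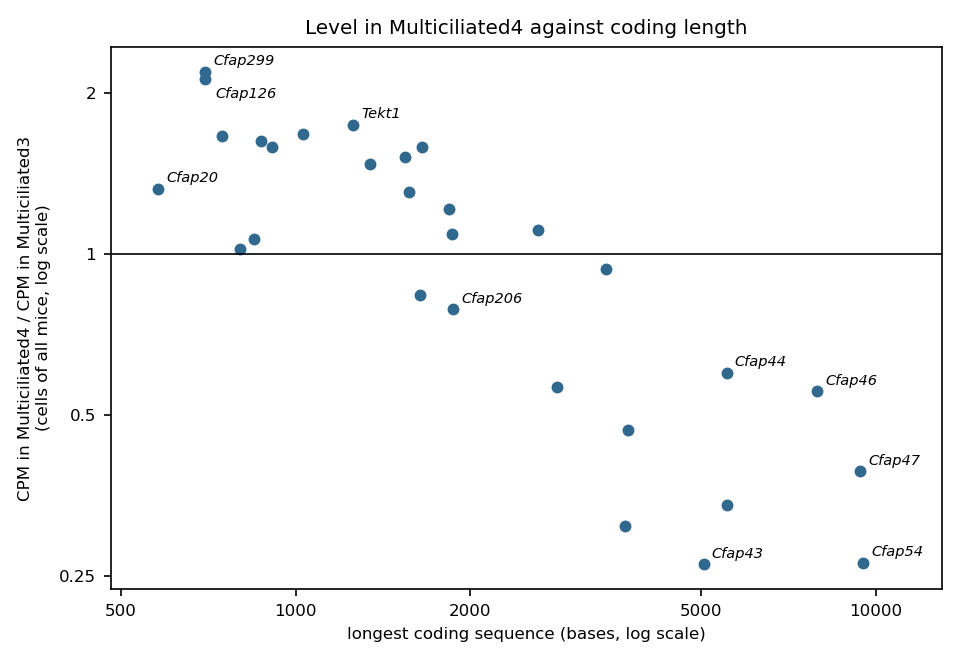
Ratio of CPM in Multiciliated4 to CPM in Multiciliated3 (vertical, log axis, cells of all mice) against the longest coding sequence of the gene in bases (horizontal, log axis) for the 29 genes with at least 20 UMIs in both clusters. Short genes such as *Cfap126* and *Cfap299* lie above the line at 1, and *Cfap70*, of 3423 coding bases, and all longer genes lie below it.

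The comparison of *MIS/MIS* with *WT/WT* asked whether transcripts of these ciliary genes respond when a dynein assembly factor carries a missense allele. In multiciliated cells, summed per mouse over the 4 clusters, all 36 members passed the filter on low counts, and 0 of 36 passed an adjusted p of 0.05 by limma voom (lowest adjusted p = 0.896). In that fit 1 of 14206 genes was called (0.00704%), *Wdfy1*, which is no member and rose from 28.5 ± 3.23 to 106 ± 5.34 CPM (SD, n = 3). At an unadjusted p under 0.05, 6 members were higher in *MIS/MIS* and 0 lower, against 2.34% of all genes higher. These 6 were *Cfap47*, *Cfap161*, *Cfap74*, *Cfap100*, *Cfap57* and *Cfap69*. Their number was 1 without MT1306, 2 without WT1, WT2 or Multiciliated1, 3 with an equal mix of clusters and 15 without MT1301. Over all genes, 614 of 14206 were under 0.05 in either direction. That count was 1319 of 14272 without MT1301 and 361 of 14259 without MT1306. It was 461 of 14579 without WT1 and 507 of 14588 without WT2. Without Multiciliated1 it was 580 of 13921, and with an equal mix of clusters 579 of 13477. By the signs of the fold changes alone 33 members were higher in *MIS/MIS* and 3 lower, with a median log2 difference of 0.25 against 0.01 over all genes. All *MIS/MIS* mice lay above all *WT/WT* mice for 8 members, against 5.03% of all genes. The other 28 overlapped. The number without overlap was 0 without Multiciliated1, 4 with an equal mix of clusters and 18 without MT1301. With 1 mouse fewer any gene separates more readily. The share over all genes is not given for any of these settings, so these counts cannot be read against a background.

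The median depended most on 1 mouse. Relative to the *WT/WT* mean, the members' median log2 deviation was 0.05 in MT1301, 0.58 in MT1306 and 0.16 in MT1383, and 32 of 36 genes had their highest CPM of the 6 mice in MT1306. Without MT1306 the median log2 difference was 0.11, and 27 of 36 members were higher in *MIS/MIS*. MT1306 also had the largest share of Multiciliated3 among its multiciliated cells, 70.2% against 43.0% to 58.9% in the other 5 mice. In Multiciliated3 alone, all 36 members were tested, 0 of 36 were called (0.0229% of 13096 genes were), 28 were higher in *MIS/MIS* and the median was 0.09. There 3 members did not overlap, against 4.75% of all genes. The 3 basal markers (*Krt5*, *Krt14* and *Trp63*) summed in all multiciliated cells to 35.6 to 51.0 CPM for *WT/WT* and to 12.0 to 27.7 CPM for *MIS/MIS*, without overlap and lowest in MT1306. In Multiciliated3 alone their sums overlapped, with means of 41.5 and 15.4 CPM. The 4 secretory markers summed to 809 CPM in multiciliated cells of MT1306 and to 757 to 2352 CPM in the other mice. The part of either set of markers in the result was not tested.

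**Figure D4:**
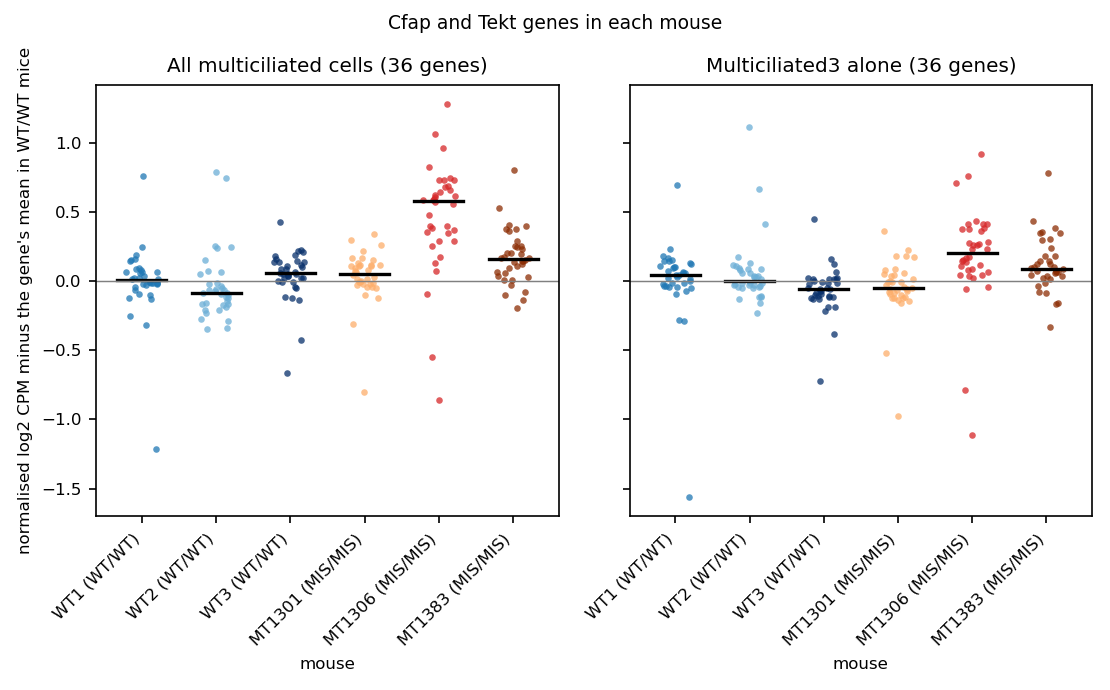
Normalised log2 CPM of each of the 36 genes minus its mean in *WT/WT* mice, with 1 point per gene and a black bar at the median of each mouse, in all multiciliated cells (left) and in Multiciliated3 alone (right). The bar of MT1306 is at 0.58 on the left and 0.20 on the right, and the points of MT1301 lie around 0 in both panels.

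The inner arm tethers and regulators had the largest median log2 difference of the groups, 0.42 over 5 genes, all higher in *MIS/MIS*. Of these, *Cfap100* measured 50.9, 41.0 and 58.1 CPM in WT1, WT2 and WT3 and 60.1, 82.9 and 60.6 CPM in MT1301, MT1306 and MT1383. The genotypes did not overlap, though by a narrow margin, and the log2 difference was 0.42 ± 0.17 (SE), with 0.26 without MT1306 and 0.27 without WT2. *Cfap57* measured 45.03, 43.0 and 50.5 CPM against 51.2, 72.7 and 56.5 CPM, with a log2 difference of 0.34 ± 0.14 that was 0.20 without MT1306. Here too the lowest *MIS/MIS* mouse, MT1301, was next to the highest *WT/WT* mouse. In Multiciliated3 alone the median of the 5 genes was 0.20.

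The central apparatus genes had a median of 0.31 over 8 genes, all higher in *MIS/MIS*. *Cfap47*, the member with the lowest p (unadjusted p = 0.021 by limma voom, adjusted p = 0.896), measured 20.9, 16.4 and 20.8 CPM in *WT/WT* and 22.7, 29.7 and 25.4 CPM in *MIS/MIS*. Its log2 difference was 0.41 with a 95% confidence interval of 0.08 to 0.73. *Cfap74* measured 21.7, 20.3 and 26.8 CPM against 25.6, 34.8 and 30.4 CPM, a log2 difference of 0.37 ± 0.15. For *Cfap74* the ranges overlapped, since MT1301 lay below WT3. In Multiciliated3 alone the median of the 8 genes was 0.15.

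The 12 microtubule inner proteins had a median of 0.15, with 10 higher and 2 lower. *Cfap161* measured 94.0, 86.5 and 111 CPM in *WT/WT* and 106, 157 and 131 CPM in *MIS/MIS*, a log2 difference of 0.40 ± 0.15, with MT1301 below WT3, and 0.25 without MT1306. With an equal mix of clusters the log2 differences of *Cfap47*, *Cfap100*, *Cfap57* and *Cfap161* were 0.19, 0.20, 0.18 and 0.19. *Cfap126* measured 473, 486 and 508 CPM against 517, 627 and 492 CPM, a log2 difference of 0.13 with an interval of -0.11 to 0.38. The interval bounds a change of this abundant gene on either side of no difference.

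The tektins within this group showed no common direction. *Tekt1* measured 165, 191 and 194 CPM in *WT/WT* and 172, 226 and 192 CPM in *MIS/MIS*, a log2 difference of 0.07 with an interval of -0.19 to 0.34. *Tekt4* measured 112, 130 and 108 CPM against 124, 143 and 131 CPM, a log2 difference of 0.17 with an interval of -0.06 to 0.39. Both sets of values overlapped between genotypes. *Tekt2* measured 2.81, 6.06 and 2.70 CPM against 4.47, 5.45 and 6.46 CPM, a log2 difference of 0.58 ± 0.30. *Tekt3* measured 1.26, 1.69 and 1.32 CPM against 0.817, 0.779 and 1.73 CPM, and *Tekt5* 0.665, 2.85 and 2.24 CPM against 1.33, 1.12 and 1.48 CPM. These were the least abundant tektins, and their log2 differences of -0.33 ± 0.37 and -0.40 ± 0.45 were smaller than their errors.

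The 2 genes of dynein assembly differed in abundance and in their values. *Cfap298* measured 427, 489 and 478 CPM in *WT/WT* and 483, 493 and 444 CPM in *MIS/MIS*, a log2 difference of 0.01 with an interval of -0.19 to 0.21. *Cfap300* measured 10.4, 9.80 and 10.2 CPM against 11.6, 16.2 and 11.3 CPM, without overlap, and a log2 difference of 0.28 ± 0.17. Neither passed the test. At the radial spoke base, *Cfap206* measured 200, 179 and 224 CPM against 201, 258 and 236 CPM, a log2 difference of 0.18 ± 0.12. Among the members without an assigned structure, *Cfap36* measured 344, 445 and 347 CPM against 375, 355 and 352 CPM. Its log2 difference was -0.08 ± 0.11, and WT2 had the highest value. In Multiciliated3 alone the log2 difference of *Cfap36* was also -0.08, and WT2 was again highest. The broad *Cfap97* measured 35.4, 35.9 and 38.0 CPM against 33.9, 40.3 and 38.9 CPM, a log2 difference of 0.02 with an interval of -0.19 to 0.23. *Cfap206*, *Cfap298*, *Tekt1* and *Cfap126* are named in the study's lists of gene ontology terms, a choice made on these same samples.

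In Multiciliated1, 30 members passed the filter, 0 were called (0.00874% of genes were), the median log2 difference was 0.25, and 2 members did not overlap against 3.97% of all genes. In Multiciliated2, 32 members passed, 0 were called (0.00857% of genes were), all 32 were higher in *MIS/MIS* with a median of 0.22, and 3 did not overlap against 3.98% of all genes. The mouse that stood highest was not the same in each cluster, since 14 of 30 members were highest in WT2 in Multiciliated1, 25 of 32 in MT1383 in Multiciliated2 and 21 of 36 in MT1306 in Multiciliated3. Multiciliated4 was not fitted, because WT2 had 6 cells there. A list of 63 other axonemal genes, made of dynein arm, radial spoke, central pair and nexin-dynein genes, had a median log2 difference of 0.22 in all multiciliated cells, with 59 higher and 0 called, and of 0.05 in Multiciliated3 alone.

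In secretory cells 27 members passed the filter and 0 were called (0.00735% of genes were, by 1 gene, *Wdfy1*), with 4 members at an unadjusted p under 0.05 and 258 of all 13610 genes. The count of 4 became 10 without MT1301 and 1 or 2 without any other mouse. Over all genes the count rose as well, to 1125 of 13687 without MT1301, and was 161 to 412 without any other mouse. The filter can favour a gene that is high in 1 genotype. In basal cells 29 passed and 0 were called (0.0% of genes were), with 0 members at an unadjusted p under 0.05 and 334 of all 14615 genes. The members' median log2 differences were 0.25 and 0.32, and they were 0.02 and 0.04 without MT1383. The summed level of the 30 specific genes in secretory cells was 24.8, 24.99 and 24.4 CPM in WT1, WT2 and WT3 and 25.1, 32.5 and 40.6 CPM in MT1301, MT1306 and MT1383. In basal cells it was 18.7, 16.5 and 22.9 CPM and 17.3, 23.3 and 36.1 CPM. MT1383 was highest in both cell groups. Multiciliated cells made up 11.7%, 12.0% and 16.2% of the cells of the *WT/WT* mice and 16.2%, 24.4% and 32.1% of those of the *MIS/MIS* mice, in the same order. The part of transcripts free in the suspension was not tested. Of the 5 enriched genes, *Cfap20*, *Cfap36*, *Cfap298* and *Cfap410* stood at 11.2 CPM or more outside multiciliated cells, and their log2 differences lay between -0.06 and 0.10 in secretory and between 0.03 and 0.19 in basal cells. *Tekt5*, the remaining enriched gene, was at 0.254 and 0.484 CPM there, with log2 differences of -0.41 ± 0.61 and -0.14 ± 0.48.

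**Figure D5:**
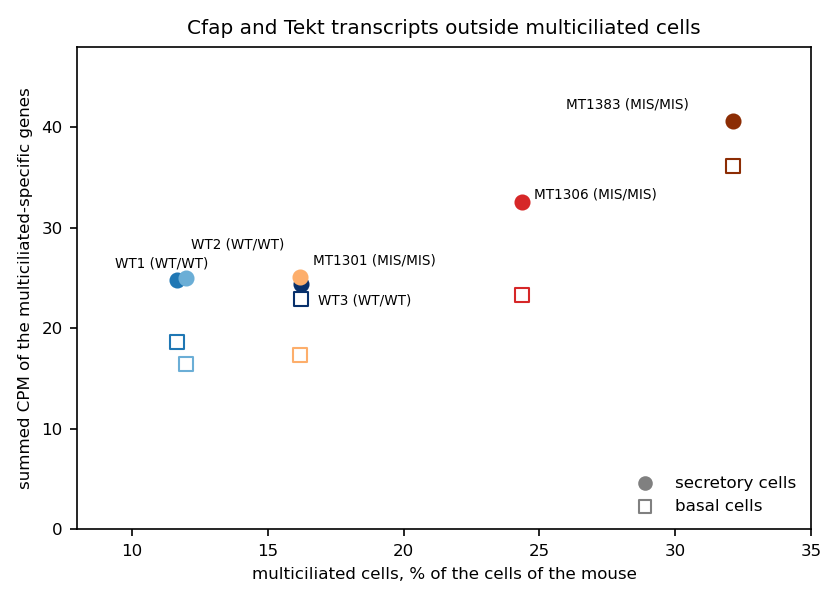
Summed CPM of the 30 multiciliated-specific genes in secretory cells (filled circles) and basal cells (open squares) against the percentage of multiciliated cells among all cells of the mouse, with 1 colour per mouse. The 4 mice with up to 16.2% multiciliated cells lie at 24.4 to 25.1 CPM in secretory cells, MT1306 at 32.5 CPM and MT1383 at 40.6 CPM.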

How the data were processed

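The authors deposited raw UMI counts of each gene in each cell and a table that names the cluster of every cell. Per the labels, libraries were made with a 10x 3′ kit, and the submitters' processing notes name Cell Ranger 7.1.0 and mm10. The authors filtered and clustered the cells with Seurat. A ceiling of 7500 genes was their guard against doublets. Of 23871 deposited cells, 23216 lay within the stated filters; all were kept here and no doublet caller was run. Both deposited files separate values by a mistyped tab and were not recorded as counts for that reason, so the negative binomial test of the plan was not used and limma 3.58.1 (voom) in R 4.3.3 took its place. All values were whole, and each cell's total equalled that of the deposited cell table. The animal numbers of the *MIS/MIS* columns occur in no sample title, and these columns were used as replicates of the genotype.

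Counts were summed per mouse and cell group. Genes with at least 10 counts in a library of median size in 3 mice and a total of 15 were kept, TMM factors used trims of 0.3 and 0.05, and p-values were adjusted by Benjamini-Hochberg over all genes tested at a threshold of 0.05. The pipeline was tested on simulated data. The 36 genes, the ratios, the roles and the list of axonemal genes were chosen with earlier results of these data known. Per-mouse values are given for the members past the threshold in multiciliated cells, the 5 with the lowest p in each direction (only 3 members were lower), the 3 most abundant, all tektins, members in the study's gene ontology lists, broad members and the 3 lowest in the ratio of Multiciliated3 to Multiciliated2; other members given with values, such as *Cfap53*, *Cfap77* and *Cfap300*, were added after these were seen. Alternatives were limma-trend (added after the data were seen), upper-quartile factors, each mouse left out, a filter of 10 counts required in all mice, none at all, Multiciliated3 alone, no Multiciliated1, an equal mix of clusters, and the cell filters the methods state (2500 to 7500 genes, at most 25% mitochondrial). Python 3.11.15 was used for the other steps. Gene positions and coding lengths are from GENCODE M21 on GRCm38.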

Additional observations from a re-analysis of the deposited data

How the results depend on the processing

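No paired analysis was possible because replicate numbers of the labels could not be tied to the *MIS/MIS* columns. The DESeq2 alternative was not run, since the count test was not used. No member passed the threshold in multiciliated, secretory or basal cells under any alternative run, and the lowest adjusted p of a member in multiciliated cells lay between 0.5004 and 0.9999. In multiciliated cells 3 genes in place of 1 were called in Multiciliated3 alone. In secretory cells 0 genes in place of 1 were called with upper-quartile factors and 0 when any mouse was left out, by limma voom, against 258 genes at an unadjusted p under 0.05. The members' median log2 difference in multiciliated cells was 0.25 and lay between 0.09 and 0.36, with the lowest in Multiciliated3 alone, and 27 to 34 members were higher in *MIS/MIS*. The count of members without overlap, 8, became 3 in Multiciliated3 alone, 4 with an equal mix of clusters and 0 without Multiciliated1. It was 8 to 18 with each mouse left out, where any gene separates more readily. The share over all genes was 4.75% in Multiciliated3 alone and is not given for the other alternatives. The cause of these changes was not tested. With a specific class from a ratio of 5, the enriched class held 3 genes in place of 5.

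Of 209 values of 15 named members under alternatives, 194 kept their direction, 0 passed the threshold and 15 turned sign, in 6 genes. *Cfap298* turned to -0.0252 in Multiciliated3 alone, to -0.0404 without Multiciliated1 and to -0.00167 with upper-quartile factors, and lay between -0.0391 and 0.0598 over the fits without 1 mouse. *Cfap97* turned to -0.00247 in Multiciliated3 alone, to -0.00543 with an equal mix and to -0.0122 with the stated cell filters, and lay between -0.0239 and 0.0909 without 1 mouse. In Multiciliated3 alone *Tekt1* turned to -0.00415 and *Tekt4* to -0.0227. Without 1 mouse *Tekt1* lay between -0.0395 and 0.171 and *Cfap36* between -0.149 and 0.0371. *Tekt5*, at -0.40 the member with the largest decrease and an SE of 0.45, turned to 0.161 with an equal mix. The other 5 lay between -0.08 and 0.17. None of them passed the threshold with 3 mice per genotype, and the smallest difference that could be detected was not tested.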
